A study of Mus musculus with 8 samples.

Results

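Gene expression in the arcuate nucleus (Arc) of the mouse hypothalamus was compared with that in the ventromedial nucleus (VMH), its dorsal neighbour. The comparison used 4 arrays, 2 of the Arc and 2 of the VMH, out of 8 arrays in the series, which also covered the dorsomedial hypothalamus (DMH) and the lateral hypothalamus (LH). The arrays were chosen by their labels and not by any measured value. The tissue was cut by laser microdissection from female C57BL/6 mice at 3 months of age, and no group carried a treatment or a transgene. The methods name 2 mice as the source of all nuclei, and the labels do not say which mouse gave which array. Each array therefore read the whole mixture of neurons, glia, and vessel cells in a dissected piece, and fewer cells of a type could not be told apart from less RNA per cell. The series was made to find genes particular to the DMH, so the difference between the Arc and the VMH is not the question it was designed for.

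The Arc lies at the base of the third ventricle, next to the median eminence, and its neurons sense circulating hormones and release peptides that drive or curb feeding, set off pulses of reproductive hormones, and control the pituitary. Many of its neurons use GABA, and one group makes dopamine. The VMH is built mostly of glutamatergic neurons that depend on the nuclear receptor *Nr5a1* for their development, and it is known for its part in energy expenditure, glucose balance, defence, and mating behaviour. The ventricle wall beside the Arc is lined by tanycytes, glial cells that transport and convert hormones.

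Values are scaled signals, which are processed intensities put on a common footing through the 75th percentile of each array and brought back to the range of the deposited values. A signal is called measured when the scanner software found it well above background. The lowest measured signal was between 88.3 and 127 on the 4 arrays, and a value below that range carries no order. *Cckbr*, *Dlx1as*, *Fos*, *Kcng1*, *Nr4a2*, *Otp*, *Rbp4*, *Socs3*, and *Trpm4* were each measured on 1 of the arrays of their lower nucleus, so their differences rest in part on an array that did not measure them. Of 55681 probes, 27450 were measured on both arrays of at least 1 of the nuclei and were tested with limma on the log2 scale. A probe was called when its p, after Benjamini-Hochberg adjustment over the 27450 probes, was under 0.05. Over the tested probes with a value on all 8 arrays, the replicates correlated at 0.982 in the Arc and 0.979 in the VMH, against 0.932 to 0.944 between the nuclei. Precision is limited by having 2 arrays per nucleus, and the p-values measure the spread between these arrays, which may be technical.

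The 2 nuclei differed in 2503 probes (9.12%), of which 1069 (3.89%) were higher in the Arc and 1434 (5.22%) were higher in the VMH. Without the scaling between arrays, the split was 667 to 1831, and the median difference over the tested probes was then -0.27 on the log2 scale. With 1 probe kept for each gene, the one with the highest mean signal, 12690 genes were tested, and 1403 of them (11.1%) were called. The Arc had the higher signal in 575 genes (4.53%) and the VMH in 828 genes (6.52%). These shares, and the 11.1% called in all, are the background for the counts of each list below. The fitted difference was at least 4-fold in 203 genes higher in the Arc and in 194 genes higher in the VMH, and these counts include genes that one nucleus did not measure, for which the fitted value is no bound. In all 2503 called probes both arrays of one nucleus lay above both arrays of the other. The arrays were also separate in this way in 7807 of the 12690 tested genes (61.5%), called or not. No gene had probes called in opposite directions. A fit of 3 arrays called 1118 probes without Arc1, 1272 without Arc2, 1385 without VMH1, and 2240 without VMH2. Such a fit has 1 array in one nucleus, which is assumed to vary like those of the other, and 1 residual degree of freedom, so a call lost in it, here and below, cannot be put down to the array left out rather than to having fewer arrays. The calls that held in each of those 4 fits were 832, with 382 higher in the Arc and 450 in the VMH.

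**Figure D1:**
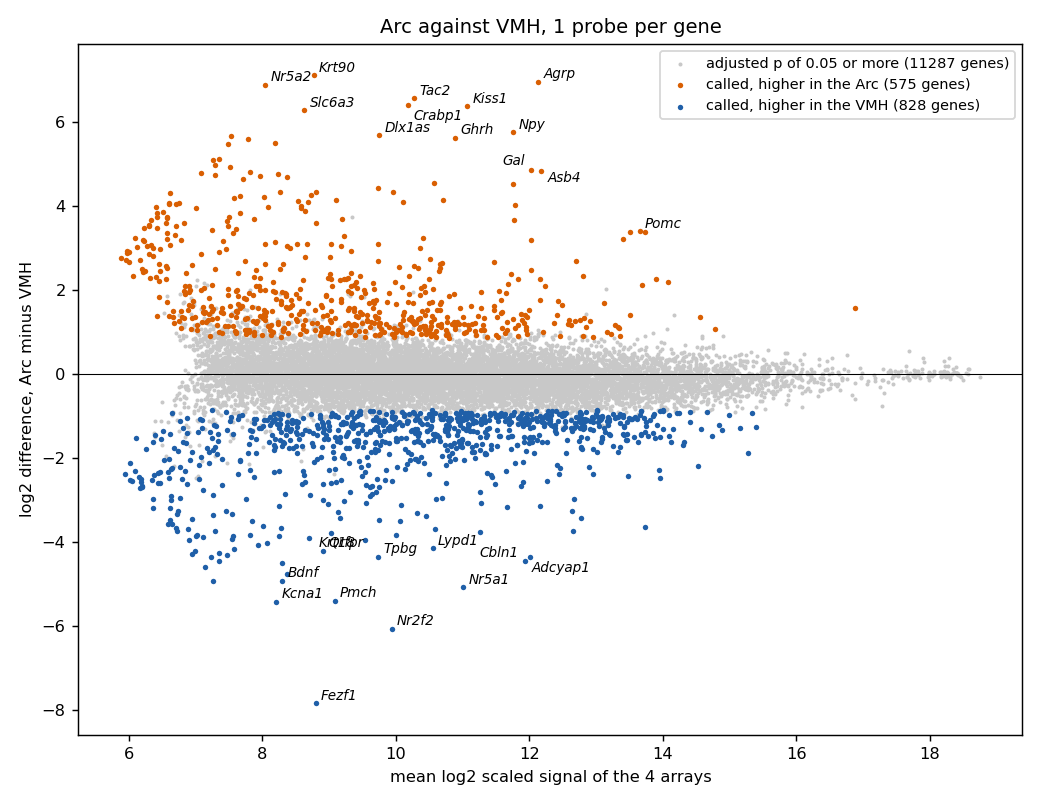
The log2 difference between the Arc and the VMH (vertical axis) against the mean log2 scaled signal of the 4 arrays (horizontal axis) for 12690 genes, each by 1 probe. The 575 orange genes were called higher in the Arc and the 828 blue genes higher in the VMH, and differences of genes that one nucleus did not measure have no exact size.

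The peptides known from the Arc had the largest median difference of the 31 lists. Of 18 genes on this list, 14 passed the filter on dim probes, and 11 of these were higher in the Arc, 0 in the VMH, and 3 did not pass. The median difference of the list was 4.13 on the log2 scale, against -0.05 over all genes tested. It was 3.28 after normexp background correction, and over the 11 members measured on all 4 arrays it was 3.40, with 8 higher in the Arc. *Agrp*, which encodes a peptide that drives feeding by blocking melanocortin receptors, had signals of 53020.4 and 47181 on the Arc arrays and 406 and 398 on the VMH arrays. The ratio of the means was 125 (log2 difference 6.96 ± 0.21, adjusted p = 0.000200, where ± gives limma's standard error with n = 2 arrays a nucleus, here and below), and the DMH and LH arrays read 397 to 581. *Npy*, made by the same neurons, read 26974 and 23813 in the Arc and 387 and 567 in the VMH (log2 difference 5.76 ± 0.26, adjusted p = 0.000397). *Pomc*, the precursor of the melanocortin that curbs feeding, read 40403 and 43108 against 4049 and 3865 (log2 difference 3.40 ± 0.20, adjusted p = 0.000546). The VMH arrays thus read about as little *Agrp* as the DMH and LH arrays, whereas their *Pomc* lay above the 1554 and 1447 of the DMH and the 1003 and 1299 of the LH. *Cartpt*, a peptide found in many *Pomc* neurons, showed 43102 and 44665 in the Arc and 4463 and 3989 in the VMH (log2 difference 3.38 ± 0.21, adjusted p = 0.000565).

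*Kiss1*, which encodes kisspeptin, a peptide of the neurons that drive pulses of gonadotropin-releasing hormone, read 23170.2 and 16617 in the Arc and 287 and 194 in the VMH (log2 difference 6.38 ± 0.29, adjusted p = 0.000397). *Tac2*, the precursor of neurokinin B in the same cells, read 13623 and 10678 against 124 and 131 (log2 difference 6.56 ± 0.22, adjusted p = 0.000251), and only 1 of the VMH arrays measured it. The peptide of the growth hormone axis, *Ghrh*, had signals of 11681 and 15186 in the Arc and 349 and 209 in the VMH (log2 difference 5.63 ± 0.30, adjusted p = 0.000437). *Sst*, which encodes the inhibitory peptide somatostatin, differed less, with 33478 and 33319 against 6957 and 7047 (log2 difference 2.25 ± 0.20, adjusted p = 0.00178). For *Gal*, which encodes galanin, the Arc arrays read 20838 and 24187 and the VMH arrays 1147 and 528 (log2 difference 4.85 ± 0.37, adjusted p = 0.00109), and the DMH arrays were higher still, at 40669 and 43021. The call of *Gal* was lost when all 8 arrays entered one fit (adjusted p = 0.0645). *Prok2*, a secreted signal known from the circadian system, was measured on both Arc arrays at 599 and 1319 and on neither VMH array, where the values were 32.5 and 21.1. Where a nucleus had no measured array, the ratio can only be bounded, by setting the mean log2 signal of the bright nucleus against the mean of the higher of the lowest measured signal and the value itself on each dim array. By this rule the Arc level of *Prok2* exceeded that of the VMH at least 8.55-fold (log2 difference 5.09 ± 0.41, adjusted p = 0.00130). The opioid precursors did not follow: *Pdyn* read 2194 and 3429 in the Arc and 2755 and 3911 in the VMH (adjusted p = 0.653), and *Penk* read 12772 and 9890.0 in the Arc and 10384 and 8746 in the VMH (adjusted p = 0.587), so the arrays of the nuclei overlapped for both.

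Among peptides and secreted signals known from the VMH or from other nuclei, 19 of 29 genes passed the filter, and 7 were higher in the VMH, 3 were higher in the Arc, and 9 did not pass. Over the 14 members measured on all 4 arrays, 5 were higher in the VMH and 2 in the Arc. *Adcyap1*, which encodes the peptide PACAP and marks many VMH neurons, read 17586 and 18972 on the VMH arrays and 1094 and 637 on the Arc arrays (log2 difference -4.45 ± 0.30, adjusted p = 0.000682). *Bdnf*, a growth factor that curbs feeding when released in the VMH, read 1730.4 and 1735 in the VMH and was not measured on either Arc array. The VMH level exceeded that of the Arc at least 15.3-fold (log2 difference -4.93 ± 0.43, adjusted p = 0.00176). *Tac1*, the precursor of substance P, went opposite to *Tac2*, with 10309 and 9184 in the VMH and 894 and 1295 in the Arc (log2 difference -3.18 ± 0.25, adjusted p = 0.00124). *Nptx2*, which encodes a pentraxin that clusters glutamate receptors, read 40689.6 and 57044 in the VMH and 3402 and 4359 in the Arc (log2 difference -3.65 ± 0.26, adjusted p = 0.000815). *Cbln1*, an organizer of synapses, read 18430.4 and 18611 in the VMH and 634 and 1299 in the Arc (log2 difference -4.35 ± 0.35, adjusted p = 0.00127). The related *Cbln4* was higher in the Arc, at 8596 and 9118 against 4311 and 2635 (log2 difference 1.39 ± 0.28, adjusted p = 0.0307), and it was called in the fit without VMH1 but not in the fits without Arc1, Arc2, or VMH2. *Cbln2* read 792 and 3411 on the Arc arrays, which lay on both sides of the VMH values of 1424 and 1146 (adjusted p = 0.773).

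*Dlk1*, an imprinted gene for a secreted and membrane-bound Notch-like protein, was higher in the Arc at 35167 and 39142 against 8627 and 7558 (log2 difference 2.20 ± 0.21, adjusted p = 0.00235). *Pmch*, which encodes melanin-concentrating hormone and belongs to neurons of the LH, read 3938 and 3139.7 on the VMH arrays and 97.5 and 71.1 on the Arc arrays, neither of which measured it, a difference of at least 31.1-fold (log2 difference -5.40 ± 0.25, adjusted p = 0.000413). The LH arrays read 17650.1 and 17005 for it and the DMH arrays 16253 and 11631. *Hcrt*, the other defining peptide of the LH, had 684 and 275 in the VMH and 188 and 241 in the Arc (adjusted p = 0.196), against 105971 and 116750.0 in the LH. *Oxt*, which encodes oxytocin and is made in nuclei outside the Arc and VMH, varied within both nuclei, with 6559 and 848 in the Arc and 25.4 and 1242 in the VMH, and it did not pass (adjusted p = 0.250). The list of 13 genes known from neighbouring nuclei had 6 tested members, of which *Pmch* and *Lhx1*, a transcription factor of the suprachiasmatic nucleus among others, were called. Without VMH1 3 members were called, and without VMH2 4. The summed signal of the 6 was 8016 and 2271 on the Arc arrays, 5290 and 5257 on the VMH arrays, and 65758 to 145302 on the DMH and LH arrays. The authors checked dissected nuclei by quantitative RT-PCR of *Agrp*, *Nr5a1*, *Hcrt*, and *Crh*, and they state that surrounding nuclei did not contaminate them. In the array values, the part of tissue from neighbouring nuclei was not tested.

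**Figure D2:**
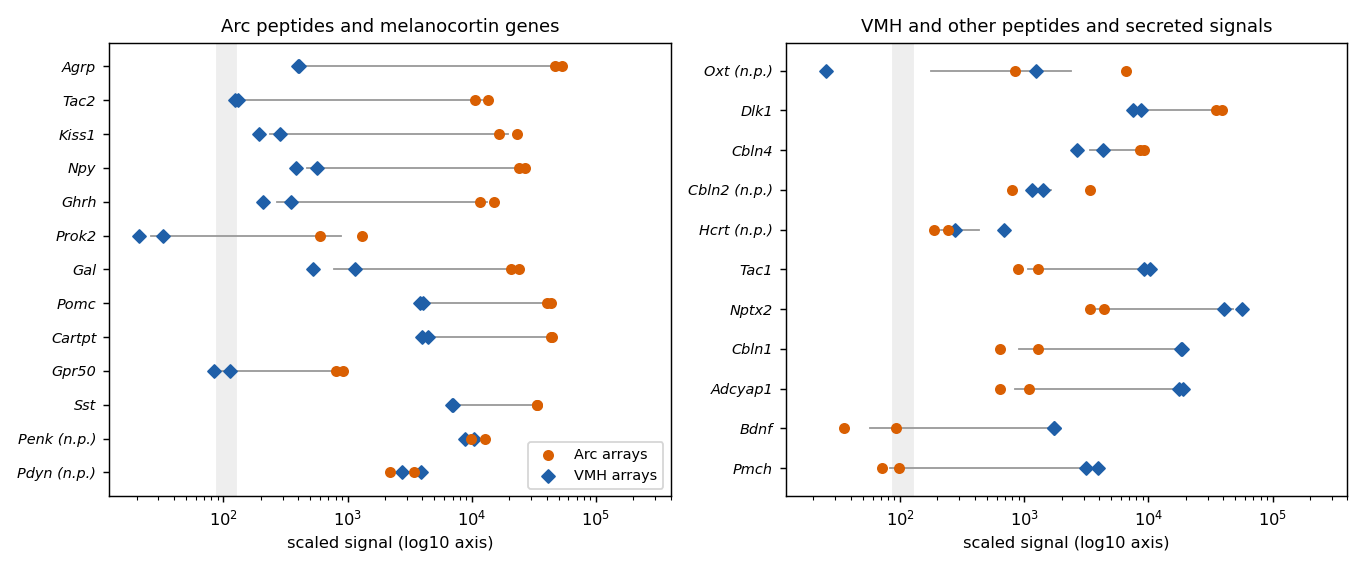
Scaled signal (horizontal log10 axis) of the peptide and secreted signal genes named in the text on each Arc array (orange circles) and VMH array (blue diamonds), with a line between the geometric means of the nuclei. The grey band spans the lowest measured signals of the 4 arrays (88.3 to 127), genes marked n.p. did not pass the threshold, and 11 of 13 genes in the left panel and 2 of 11 in the right were called higher in the Arc.

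Transcription factors known from the Arc included 25 tested genes of 28, and 17 were higher in the Arc, 2 were higher in the VMH, and 6 did not pass, with a median difference of 3.09. This median depended on signals near background, because it was 1.58 after normexp background correction and 2.26 when values below the lowest measured signal were set to it. Over the 11 members measured on all 4 arrays it was 0.78, with 4 higher in the Arc and 2 in the VMH. *Tbx3*, a T-box factor needed for the identity of *Pomc* and *Agrp* neurons, read 16146 and 16919 in the Arc and 825 and 626 in the VMH (log2 difference 4.52 ± 0.23, adjusted p = 0.000413). *Otp*, a homeobox factor of peptide neurons, read 1896 and 1845 against 76.9 and 122 (log2 difference 4.27 ± 0.27, adjusted p = 0.000648). *Gsx1*, a homeobox factor of the developing ventral forebrain, read 1250.2 and 1128 in the Arc and was not measured in the VMH, a difference of at least 11.4-fold (log2 difference 4.80 ± 0.26, adjusted p = 0.000428). *Dlx1*, a homeobox factor of GABA neurons, had 926 and 1167 on the Arc arrays and no measured signal in the VMH, at least 10.0-fold higher (log2 difference 4.64 ± 0.54, adjusted p = 0.00476). Its antisense transcript *Dlx1as*, which amplified cDNA of both strands cannot tell from *Dlx1* where they overlap, read 5264 and 7249 in the Arc and 191 and 76.2 in the VMH (log2 difference 5.68 ± 0.44, adjusted p = 0.00109), and both were higher still in the DMH, at 1895 and 1921 for *Dlx1* and 11212 and 13626 for *Dlx1as*. *Dlx2*, *Dlx5*, and *Dlx6* were called in the same direction. *Isl1*, a LIM factor of Arc peptide neurons, differed less, with 1228 and 1068 against 302 and 189 (log2 difference 2.26 ± 0.28, adjusted p = 0.00593). *Nhlh2*, a helix-loop-helix factor linked to body weight, read 1603 and 1450.2 in the Arc and was unmeasured in the VMH, at least 14.7-fold higher (log2 difference 3.99 ± 0.28, adjusted p = 0.000744). *Sox1* went the other way, at 3494 and 3656 in the VMH against 1127 and 1145 in the Arc (log2 difference -1.65 ± 0.20, adjusted p = 0.00553). *Nkx2-1*, which marks most of the ventral hypothalamus, had 2533 and 2602 in the Arc and 4902 and 2943 in the VMH and did not pass (adjusted p = 0.277).

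Of 21 transcription factors known from the VMH, 15 were tested, and 12 were higher in the VMH, 0 were higher in the Arc, and 3 did not pass, with a median difference of -1.86. Over the 11 members measured on all 4 arrays the median was -1.72, with 8 higher in the VMH. *Fezf1*, a zinc finger factor of the developing VMH, read 7587 and 5982 on the VMH arrays and 29.8 and 28.8 on the Arc arrays, neither of which measured it. The VMH level was at least 59.6-fold that of the Arc (log2 difference -7.84 ± 0.22, adjusted p = 0.000200), and the DMH arrays, at 20.7 and 20.9, did not measure it either. *Nr5a1*, the nuclear receptor that VMH neurons need to form, read 12163 and 11694 in the VMH and 325 and 384 in the Arc, a ratio of 33.6 (log2 difference -5.08 ± 0.21, adjusted p = 0.000355). *Nr2f2*, an orphan nuclear receptor also called COUP-TFII, read 8999.7 and 7114 in the VMH and was not measured in the Arc, at least 62.1-fold higher (log2 difference -6.06 ± 0.23, adjusted p = 0.000302). It was no mark of the VMH against the other nuclei, because the DMH arrays read 3927 and 3706 and the LH arrays 4074 and 4426. *Nr0b1*, a partner that represses *Nr5a1* in the gonad and adrenal, read 958 and 958 in the VMH and 123 and 198 in the Arc, where 1 array measured it (log2 difference -2.62 ± 0.28, adjusted p = 0.00334). *Vgll2*, a cofactor of TEAD factors, was at least 10.3-fold higher in the VMH, at 1359 and 996 (log2 difference -3.86 ± 0.24, adjusted p = 0.000580). *Lmo3*, a LIM-only cofactor, read 4365 and 4137 against 716 and 693 (log2 difference -2.59 ± 0.20, adjusted p = 0.00112), and *Nkx2-2* read 4136 and 4512 against 1232 and 1144 (log2 difference -1.86 ± 0.20, adjusted p = 0.00382). Without Arc1, without Arc2, and without VMH1, 10 of the 12 stayed past the threshold, with *Ldb2* and *Rreb1* the ones lost. The genes used to check the labels, *Agrp*, *Npy*, *Pomc*, *Kiss1*, and *Ghrh* for the Arc and *Nr5a1*, *Fezf1*, *Adcyap1*, and *Bdnf* for the VMH, were each called higher in the nucleus they mark.

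The closest relative of *Nr5a1* had the opposite pattern. *Nr5a2*, also called LRH-1 and known to bind the same DNA half-site, read 2548 and 3248 on the Arc arrays and 30.5 and 19.2 on the VMH arrays, neither of which measured it. The Arc level exceeded that of the VMH at least 27.7-fold (log2 difference 6.89 ± 0.29, adjusted p = 0.000355), and none of the DMH and LH arrays measured it, at 20.5 to 27.7. Each of the 2 NR5A receptors was thus high in one nucleus and low in the other in every array. In the nuclear receptor family as a whole, 32 of 41 genes were tested, and 5 were higher in the Arc, 5 were higher in the VMH, and 22 did not pass. The share called was 31.25%, against 11.1% of all genes. The split was 2 to 5 in a fit of all 8 arrays, and 3 to 4 without Arc1 and without VMH1.

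**Figure D3:**
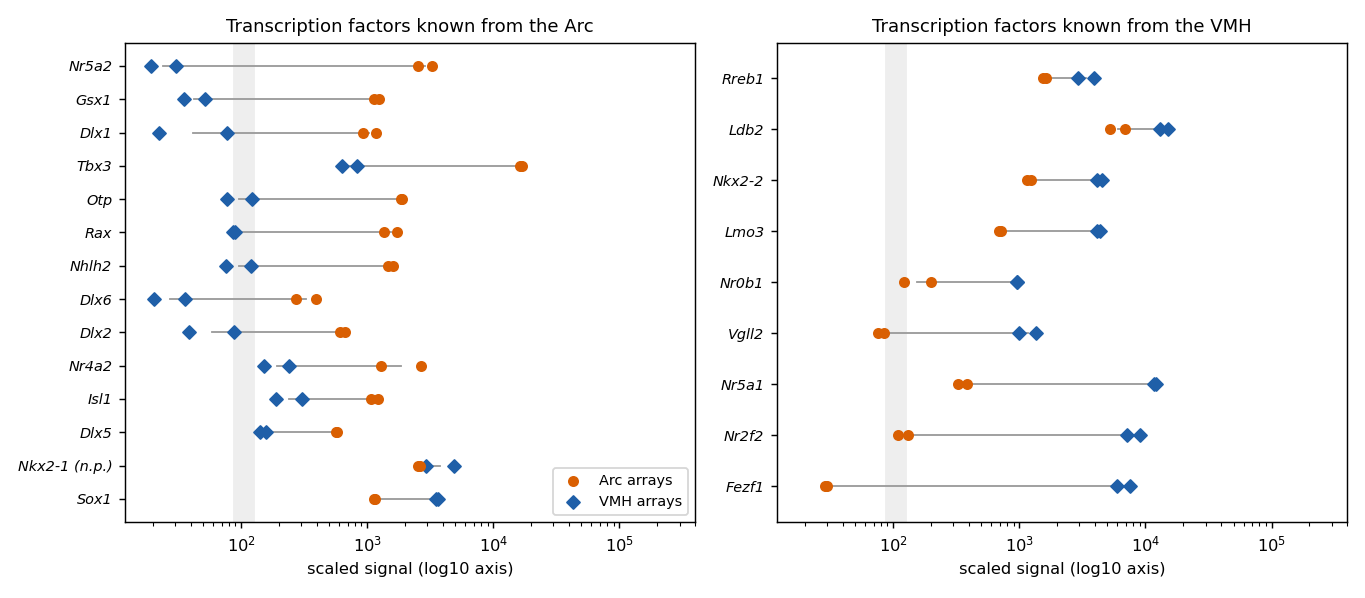
Scaled signal (horizontal log10 axis) of the named transcription factors known from the Arc (left) and from the VMH (right) on each Arc array (orange circles) and VMH array (blue diamonds), with the line, the grey band, and n.p. as in the plot of peptides. In the left panel 12 of 14 genes were called higher in the Arc, and in the right panel all 9 genes shown were called higher in the VMH.

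Since both NR5A receptors are known to bind the extended half-site CAAGGTCA, the letters CAAGGTCA were searched on both strands of RefSeq promoters (GRCm38.p6, from 250 bases before to 50 after a start). They were found in 158 of 12996 promoters of tested genes (1.22%), in 18 of 843 promoters of genes called higher in the VMH (2.14%), and in 4 of 541 promoters of genes called higher in the Arc (0.739%). Over all 32851 promoters in the table the share was 1.56%. None of the 19 promoters found for the 12 genes with the largest VMH ratios and none of the 13 found for the 12 genes with the largest Arc ratios held the letters. A match is a description of these windows and not a binding site. Of the genes called higher in the VMH with a fitted difference of at least 4-fold, 3 had a match, in 4 of 201 promoters (1.99%). The stretches around it in 2 of them, chosen after their values were seen, are shown with the motif in capitals, and the other gene is not shown. Binding by either receptor was not tested. *Hipk4*, a protein kinase gene, lies on chromosome 7 (chr7:27523063-27523122, plus strand), and *Pip5kl1*, a gene related to lipid kinases, on chromosome 2 (chr2:32575569-32575628, plus strand).
Hipk4: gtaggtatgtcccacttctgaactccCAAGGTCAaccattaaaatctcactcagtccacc
Pip5kl1: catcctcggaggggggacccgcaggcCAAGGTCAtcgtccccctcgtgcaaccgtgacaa
*Hipk4* read 700.4 and 875 in the VMH and was not measured in the Arc, at least 6.92-fold higher (log2 difference -4.30 ± 0.23, adjusted p = 0.000428), and *Pip5kl1* read 489 and 341 in the VMH and was not measured in the Arc either, at least 3.61-fold higher (log2 difference -3.45 ± 0.32, adjusted p = 0.00203). Both matches lie upstream of the start, 164 bases before it in *Hipk4* and 115 bases before it in *Pip5kl1*.

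Of 11 tested genes of GABA neurons, 8 were higher in the Arc, 0 in the VMH, and 3 did not pass, with a median difference of 2.69, and all 8 held with any 1 array left out. The median was 1.71 after normexp background correction, and over the 6 members measured on all 4 arrays it was 1.41, with 3 higher in the Arc. The 8 include the factors *Dlx1*, *Dlx2*, *Dlx5*, and *Dlx6* already described and 3 genes that make or load the transmitter. *Gad1*, which encodes the enzyme that makes GABA, read 7309.8 and 7376 in the Arc and 372 and 266 in the VMH (log2 difference 4.55 ± 0.24, adjusted p = 0.000428). *Gad2*, its second form, read 6277 and 8174 against 1382 and 923 (log2 difference 2.66 ± 0.28, adjusted p = 0.00316). *Slc32a1*, the vesicular transporter for GABA, read 16094 and 17770.4 against 3306 and 2084 (log2 difference 2.69 ± 0.27, adjusted p = 0.00297). The VMH stood apart from the other 3 nuclei here, since *Gad1* read 7194 and 8709.7 in the DMH and 9704 and 9450.3 in the LH. *Slc17a6*, the vesicular glutamate transporter of hypothalamic neurons, had the reverse pattern, with 8341 and 10588 in the VMH and 1365 and 1618 in the Arc (log2 difference -2.66 ± 0.23, adjusted p = 0.00169), and it was the only call among 4 tested glutamate genes, of which normexp background correction called 3.

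Genes of dopamine neurons were tested for 17 of 17 members, and 7 were higher in the Arc, 1 was higher in the VMH, and 9 did not pass. Of the 13 members measured on all 4 arrays, 3 were higher in the Arc and 1 in the VMH. *Slc6a3*, the dopamine transporter, read 3264 and 3696 on the Arc arrays and was not measured in the VMH, at least 33.4-fold higher (log2 difference 6.28 ± 0.21, adjusted p = 0.000251). Of the 4 DMH and LH arrays 1 measured it. *Th*, the first enzyme of dopamine synthesis, read 31311 and 34984 in the Arc, 3899.9 and 3242 in the VMH (log2 difference 3.22 ± 0.22, adjusted p = 0.000721), and 20687 and 23366 in the DMH. *Gch1*, which makes the cofactor of that enzyme, read 1834 and 1269 in the Arc and was unmeasured in the VMH, at least 14.7-fold higher (log2 difference 5.59 ± 0.30, adjusted p = 0.000433). *Slc18a2*, which loads monoamines into vesicles, read 3524 and 4564 against 715 and 595 (log2 difference 2.62 ± 0.24, adjusted p = 0.00189). *Nr4a2*, a nuclear receptor of dopamine neurons, read 1292 and 2687 against 153 and 241 (log2 difference 3.28 ± 0.40, adjusted p = 0.00556), a call lost in the fit of all 8 arrays (adjusted p = 0.115). *Ddc*, the second enzyme, did not pass, and its VMH arrays lay just above its Arc arrays, at 15638 and 14764 against 11246 and 14556 (adjusted p = 0.552).

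Receptors and signals of energy and growth sensing included 35 tested genes of 39, of which 12 were higher in the Arc, 3 were higher in the VMH, and 20 did not pass. Over the 30 members measured on all 4 arrays, 10 were higher in the Arc and 2 in the VMH. *Ghsr*, the receptor of ghrelin, read 1122 and 1283 in the Arc and was not measured in the VMH, at least 11.5-fold higher (log2 difference 5.48 ± 0.29, adjusted p = 0.000428). *Calcr*, the calcitonin receptor, and *Ramp3*, a partner that turns it into an amylin receptor, went together. *Calcr* read 4312 and 3608 against 244 and 139 (log2 difference 4.42 ± 0.31, adjusted p = 0.000755), and *Ramp3* read 2959 and 4811 against 892 and 359 (log2 difference 2.74 ± 0.46, adjusted p = 0.0171), a call lost without Arc2. *Npy2r*, the receptor through which NPY neurons are restrained, read 1505 and 1555 against 216 and 149 (log2 difference 3.09 ± 0.25, adjusted p = 0.00127). *Socs3*, which dampens leptin signalling, read 938 and 1000.4 in the Arc and 112 and 130.5 in the VMH (log2 difference 3.00 ± 0.21, adjusted p = 0.000755). The leptin receptor itself, *Lepr*, had 507 and 355 in the Arc and 191 and 254 in the VMH, with the Arc arrays above the VMH arrays, and did not pass (adjusted p = 0.0830). *Asb4*, an imprinted ubiquitin ligase gene of feeding neurons, read 25394 and 23780.0 against 1007 and 748 (log2 difference 4.82 ± 0.23, adjusted p = 0.000413), and the DMH and LH arrays lay between, at 16027 and 18678 in the DMH and 12557 and 12729.9 in the LH. *Irs4*, an insulin receptor substrate, read 15222 and 16704 against 4602 and 5364 (log2 difference 1.68 ± 0.21, adjusted p = 0.00635). *Glp1r*, the receptor of glucagon-like peptide, read 1746 and 2519.5 against 577 and 702 (log2 difference 1.72 ± 0.26, adjusted p = 0.0120), and it lost the call without Arc2 and without VMH1.

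Higher in the VMH within this list were *Cnr1*, *Htr1b*, and *Abcc8*. *Cnr1*, the cannabinoid receptor, read 13178 and 13903 in the VMH and 1584 and 1492 in the Arc (log2 difference -3.14 ± 0.20, adjusted p = 0.000658). *Htr1b*, an inhibitory serotonin receptor, read 779.7 and 1055 in the VMH and was not measured in the Arc, at least 7.78-fold higher (log2 difference -3.63 ± 0.54, adjusted p = 0.0116). *Abcc8*, the regulatory subunit of the ATP-sensitive potassium channel, read 2072 and 1839 against 853 and 738 (log2 difference -1.30 ± 0.21, adjusted p = 0.0158), a call lost without Arc1, without Arc2, and without VMH1. *Mc3r*, a melanocortin receptor, read 2906 and 2410.1 in the Arc and 2352 and 2568 in the VMH (adjusted p = 0.812), and *Insr*, the insulin receptor, read 2463 and 1954 in the Arc and 1850.2 and 2015 in the VMH (adjusted p = 0.666), so the arrays of the nuclei overlapped for both.

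Of 12 tested genes of steroid signalling, 2 were higher in the Arc, 1 was higher in the VMH, and 9 did not pass, so 25% were called against 11.1% of all genes. *Esr1*, the estrogen receptor alpha, read 5000.3 and 3474 in the Arc and 620.4 and 316 in the VMH (log2 difference 3.23 ± 0.37, adjusted p = 0.00418), and all 3 tested probes of the gene were called higher in the Arc. *Greb1*, an estrogen-induced cofactor, read 442 and 662 in the Arc and was not measured in the VMH, at least 5.04-fold higher (log2 difference 2.68 ± 0.43, adjusted p = 0.0150), a call lost without Arc2. *Pgr*, the progesterone receptor, read 4347 and 6499 in the Arc and 3493 and 3196 in the VMH and did not pass although its Arc arrays were above its VMH arrays (adjusted p = 0.168), and *Esr2*, the beta form of the estrogen receptor, read 4997 and 6356 in the Arc and 6019.8 and 6185 in the VMH (adjusted p = 0.802).

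Among other markers of the VMH, 22 of 28 genes were tested, and 8 were higher in the VMH, 3 were higher in the Arc, and 11 did not pass. Of the 16 measured on all 4 arrays, 4 were higher in the VMH and 2 in the Arc. *Qrfpr*, the receptor of the peptide QRFP, read 2846 and 1495 in the VMH and was not measured in the Arc, at least 15.4-fold higher (log2 difference -4.21 ± 0.37, adjusted p = 0.00180). *Tafa1*, a secreted brain protein, was at least 9.64-fold higher, at 1089.8 and 1090.3 (log2 difference -4.03 ± 0.21, adjusted p = 0.000413), and *Gpr149*, an orphan receptor, at least 4.69-fold, at 527 and 534 (log2 difference -3.88 ± 0.23, adjusted p = 0.000526). *Cckbr*, a receptor of cholecystokinin, read 1656 and 2256 against 114 and 171 (log2 difference -3.79 ± 0.28, adjusted p = 0.000995). *Gda*, which encodes guanine deaminase, read 21279 and 18259.7 against 2356 and 1791 (log2 difference -3.26 ± 0.24, adjusted p = 0.000847), and its signals in the DMH, at 1737 and 2578, lay near those of the Arc. The 3 members higher in the Arc were *Esr1*, *Npy5r*, and *Sncg*. *Npy5r*, a receptor of NPY, read 274 and 209.6 in the Arc and was not measured in the VMH, at least 2.31-fold higher (log2 difference 1.99 ± 0.27, adjusted p = 0.00831), and *Sncg*, which encodes gamma-synuclein, read 1174 and 1339 against 319.9 and 337 (log2 difference 1.93 ± 0.21, adjusted p = 0.00356).

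Genes that handle retinoids and thyroid hormone were called in both directions, most of them in the Arc. Of 24 tested genes, 8 were higher in the Arc, 1 was higher in the VMH, and 15 did not pass, with a median difference of 0.08. *Crabp1*, which binds retinoic acid in the cytoplasm, read 9879 and 11601 in the Arc and 148 and 109 in the VMH, a ratio of 83.7 (log2 difference 6.40 ± 0.24, adjusted p = 0.000302), and the DMH and LH arrays read 185 to 355. *Crabp2*, its sister gene, overlapped between the nuclei, at 6489 and 4195 in the Arc and 5879 and 4774 in the VMH (adjusted p = 0.972). *Rbp4*, the carrier of retinol, read 2300.2 and 2329 against 121 and 140.0 (log2 difference 4.15 ± 0.21, adjusted p = 0.000413). *Cyp26b1*, which breaks retinoic acid down, read 1065 and 1799.6 in the Arc and 168 and 27.9 in the VMH (log2 difference 4.34 ± 0.78, adjusted p = 0.0212), and was lost without Arc2. The second VMH array did not measure *Cyp26b1*, and with values below the lowest measured signal set to it the difference was 3.50. *Dio2*, the tanycyte enzyme that activates thyroid hormone, read 1712 and 1129.8 against 324 and 344 (log2 difference 2.06 ± 0.26, adjusted p = 0.00644). *Ttr*, the carrier of thyroid hormone and a defining gene of choroid plexus, read 209 and 251 in the Arc, which is low, and was not measured in the VMH, at least 2.21-fold lower (log2 difference 2.56 ± 0.39, adjusted p = 0.0120). Without Arc1 or without Arc2 the list had 5 called genes, all higher in the Arc, and of the 20 members measured on all 4 arrays 5 were higher in the Arc and 2 in the VMH.

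The markers of tanycytes and ependyma that were called were all higher in the Arc. Of 17 tested genes of 21, 9 were higher in the Arc, 0 in the VMH, and 8 did not pass, and their summed signal was 38154 and 36229 on the Arc arrays against 20380 and 23858 on the VMH arrays. Of the 13 measured on all 4 arrays, 5 were higher in the Arc. *Rax*, the homeobox gene that defines tanycytes and is also on the list of Arc factors, read 1738 and 1360.1 in the Arc and was unmeasured in the VMH, at least 14.8-fold higher (log2 difference 4.12 ± 0.22, adjusted p = 0.000437). *Mia*, a small secreted protein, read 6937 and 7085 against 426 and 368 (log2 difference 4.15 ± 0.21, adjusted p = 0.000413). *Lhx2*, a LIM factor of tanycytes, read 2105 and 1907 against 43.2 and 227 (log2 difference 4.34 ± 0.69, adjusted p = 0.0147). The first VMH array did not measure it, and the difference was 3.59 with that value raised to the lowest measured signal. *Frzb*, an inhibitor of Wnt signals, read 1219 and 836 in the Arc and was at least 9.72-fold lower in the VMH (log2 difference 4.92 ± 0.26, adjusted p = 0.000414), and *Vim*, an intermediate filament of tanycytes and other glia, read 1926 and 1503 against 392 and 371 (log2 difference 2.16 ± 0.22, adjusted p = 0.00313). *Foxj1*, which defines ciliated ependymal cells, did not pass the filter on dim probes. *Rax*, *Dio2*, *Gpr50*, and *Col23a1* are among those counted in other lists as well, and the part of tanycytes in those lists was not tested.

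Of 94 potassium channel genes, 61 were tested, and 20 were higher in the VMH, 4 were higher in the Arc, and 37 did not pass, with a median difference of -0.46. The share called was 39.3%, against 11.1% of all genes. *Kcna1*, a channel of axons that limits firing, read 2009.8 and 1846 in the VMH and was not measured in the Arc, at least 17.0-fold higher (log2 difference -5.42 ± 0.47, adjusted p = 0.00171), and the LH arrays read 2436 and 3518. *Kcnh3*, a channel of the ether-a-go-go type, read 741 and 645 in the VMH and was measured on no Arc or DMH array, at least 6.11-fold higher (log2 difference -4.59 ± 0.21, adjusted p = 0.000397). *Kcnh7*, its relative, was at least 6.32-fold higher, at 662 and 771 (log2 difference -4.27 ± 0.22, adjusted p = 0.000413), and *Kcns2*, a silent modifier of other subunits, at least 5.04-fold, at 614 and 528 (log2 difference -3.73 ± 0.30, adjusted p = 0.00133). *Kcnk4*, a mechanically gated leak channel, read 1629.7 and 1909.5 against 161 and 199 (log2 difference -3.30 ± 0.23, adjusted p = 0.000743). The 4 potassium channel genes higher in the Arc were *Kcna5*, *Kcng1*, *Kcnh4*, and *Kcnk9*, with *Kcng1*, a silent modifier, at 333 and 474 against 121 and 105 (log2 difference 1.82 ± 0.25, adjusted p = 0.00869). Of these, *Kcna5* was called in 1 of the 4 fits with an array left out, *Kcnh4* in 2, and *Kcnk9* in 0, and *Kcnh4* was lost in the fit of all 8 arrays. Without Arc1 or without Arc2 11 potassium channel genes were called, without VMH1 13, and without VMH2 20. Of the 51 measured on all 4 arrays, 14 were higher in the VMH and 2 in the Arc.

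Of 63 sodium, calcium, HCN, and TRP channel genes, 48 were tested, and 8 were higher in the VMH and 3 were higher in the Arc. The share called was 22.9%, against 11.1% of all genes tested. Of all genes, 4.53% were called higher in the Arc and 6.52% in the VMH. *Cacna2d1*, an auxiliary calcium channel subunit, read 12056 and 11695 in the VMH and 2264 and 1799 in the Arc (log2 difference -2.56 ± 0.22, adjusted p = 0.00163). Higher in the Arc were *Cacng5*, *Trpc5*, and *Trpm4*, of which *Trpm4*, a cation channel opened by calcium, read 581 and 544 against 79.4 and 129.5 (log2 difference 2.47 ± 0.28, adjusted p = 0.00425). *Cacng5* was lost without Arc1 and without Arc2, and *Trpc5* in each of the 4 fits. With an array left out, the split of VMH to Arc was 2 to 1 without Arc1, 4 to 1 without Arc2, 2 to 2 without VMH1, and 7 to 2 without VMH2.

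Subunits of GABA-A and glutamate receptors were almost one-sided. Of 45 genes, 40 were tested, and 19 were higher in the VMH, 1 was higher in the Arc, and 20 did not pass, with a median difference of -0.68. Over the 35 members measured on all 4 arrays the median was -0.57, with 16 higher in the VMH and 1 in the Arc. *Gabrd*, the subunit of receptors outside the synapse, read 654 and 558 in the VMH and was not measured in the Arc, at least 5.34-fold higher (log2 difference -2.97 ± 0.22, adjusted p = 0.000945). *Gabrb2* read 11559.7 and 11572 against 2432 and 2689 (log2 difference -2.18 ± 0.20, adjusted p = 0.00216), and *Gabra2* was at least 2.98-fold higher in the VMH, at 355 and 319 (log2 difference -2.01 ± 0.30, adjusted p = 0.0113), a call lost in the fit of all 8 arrays (adjusted p = 0.052). *Grm5*, a metabotropic glutamate receptor, read 7757 and 7046 against 1585 and 1803 (log2 difference -2.13 ± 0.21, adjusted p = 0.00259), and *Gria3*, an AMPA receptor subunit, 3198 and 2951 against 854 and 1061 (log2 difference -1.69 ± 0.22, adjusted p = 0.00699). The sole subunit higher in the Arc was *Gabre*, the epsilon subunit, which read 16207 and 12316 in the Arc and 933 and 818 in the VMH (log2 difference 4.02 ± 0.23, adjusted p = 0.000524), with 5798 and 6415 in the DMH. The 20 calls fell to 8 without Arc1, 12 without Arc2, 11 without VMH1, and 13 without VMH2, and *Gabre* was called in each of these fits.

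Receptors for serotonin, dopamine, noradrenaline, and acetylcholine had 21 tested genes of 49, of which 7 were higher in the VMH and 2 were higher in the Arc. Over the 18 members measured on all 4 arrays, 5 were higher in the VMH and 1 in the Arc. *Chrm5*, a muscarinic receptor, read 397 and 557 in the VMH and was not measured in the Arc, at least 4.16-fold higher (log2 difference -3.95 ± 0.25, adjusted p = 0.000629). *Htr2a*, an excitatory serotonin receptor, read 2613 and 1904 against 404 and 579 (log2 difference -2.20 ± 0.28, adjusted p = 0.00619), and *Chrna4*, a nicotinic subunit, 1061 and 1597 against 307 and 296 (log2 difference -2.11 ± 0.26, adjusted p = 0.00572). *Htr1d*, the relative of *Htr1b*, was higher in the Arc, at 166 and 212 against no measured signal in the VMH, at least 1.80-fold (log2 difference 2.21 ± 0.29, adjusted p = 0.00728), a call lost after normexp background correction and when values below the lowest measured signal were set to it. Without Arc1 or without VMH2 5 of these genes were called, and without Arc2 6. Beside the channel and receptor families stand the pan-neuronal markers, of which 3 of 11 were higher in the VMH and 0 in the Arc, or 7 and 0 after normexp background correction. *Rbfox3*, which encodes the neuronal marker NeuN, read 11776 and 11171 in the VMH and 2613 and 3725 in the Arc (log2 difference -1.88 ± 0.25, adjusted p = 0.00717), and *Nefl*, a neurofilament, 12556 and 11814 against 2165 and 3102 (log2 difference -2.23 ± 0.25, adjusted p = 0.00390). The summed signal of 9 of the 11 markers with a value on all arrays was 217626 and 198004 in the Arc and 293570 and 249839 in the VMH. The part of neuronal content in the channel and receptor differences was not tested.

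**Figure D4:**
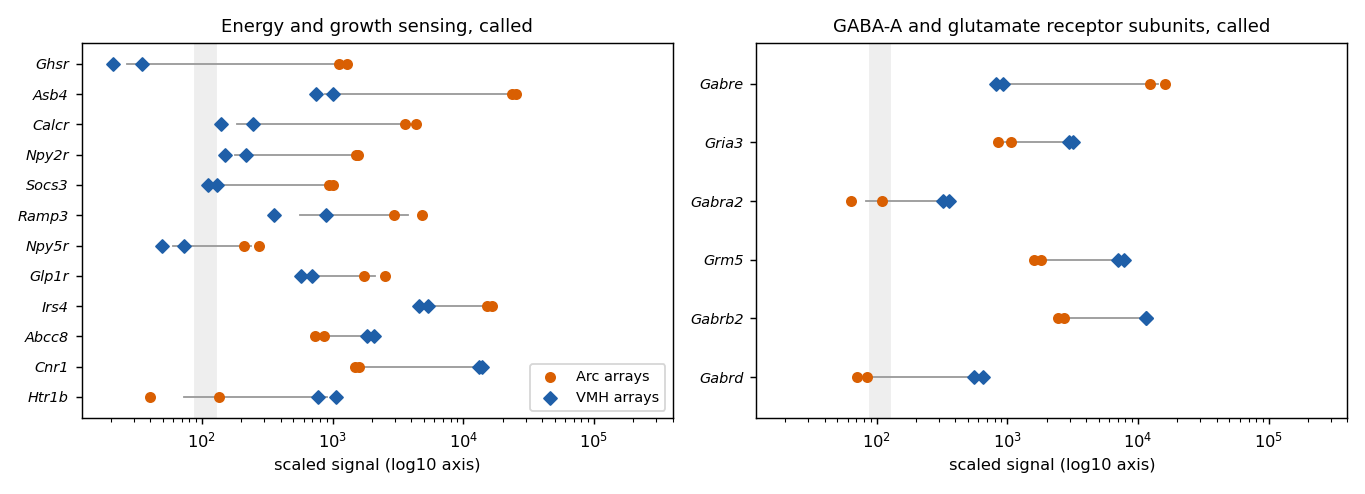
Scaled signal (horizontal log10 axis) of the named and called genes of energy and growth sensing (left, 12 genes) and of GABA-A and glutamate receptor subunits (right, 6 genes) on each Arc array (orange circles) and VMH array (blue diamonds), with the line and the grey band as in the plot of peptides. In the left panel 9 genes were higher in the Arc, and in the right panel only *Gabre* was.

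Guidance genes were called in both directions. Of 68 axon guidance genes, 53 were tested, and 14 were higher in the VMH, 5 were higher in the Arc, and 34 did not pass. The share called was 35.8%, against 11.1% of all genes. The Slit ligands, which repel axons, were called in the VMH, with *Slit3* at 1925 and 2410.3 against 263 and 312 (log2 difference -2.91 ± 0.23, adjusted p = 0.00122) and *Slit2* at 7268 and 6915 against 1525 and 1361 (log2 difference -2.30 ± 0.21, adjusted p = 0.00182). The call of *Slit2* was lost in the fit of all 8 arrays (adjusted p = 0.509). *Slit1* read 8585 and 9014 against 3635 and 4466 (log2 difference -1.13 ± 0.22, adjusted p = 0.0266) and was lost in each of the 4 fits with an array left out. *Ephb1*, a receptor of ephrins, read 4166 and 4604 in the VMH and 447 and 684 in the Arc (log2 difference -2.99 ± 0.27, adjusted p = 0.00179), and *Epha8* was at least 2.61-fold higher in the VMH, at 300.1 and 290.2 (log2 difference -3.18 ± 0.20, adjusted p = 0.000648). *Unc5d*, a netrin receptor, was higher in the Arc at 1237 and 1232 against 235 and 294 (log2 difference 2.23 ± 0.22, adjusted p = 0.00254) and lost that call in the fit of all 8 arrays, whereas *Unc5a* was higher in the VMH at 8654 and 7674 against 3102 and 3976 (log2 difference -1.21 ± 0.23, adjusted p = 0.0246), a call lost without Arc1, without Arc2, and without VMH1. The 19 calls fell to 8 without Arc1, 9 without Arc2, 8 without VMH1, and 14 without VMH2, and the fit of all 8 arrays called 12. Of 27 tested genes with a numbered *Cdh* or *Pcdh* symbol, 5 were higher in the VMH and 0 in the Arc, where 6.52% of all genes tested were called higher in the VMH. *Cdh4*, the cadherin with the largest of these differences, was at 4990.3 and 7067 in the VMH against 870.0 and 1553 in the Arc (log2 difference -2.35 ± 0.34, adjusted p = 0.00995). The VMH count was 3 in each of the 4 fits with an array left out, and without VMH1 1 of these genes was called in the Arc. The numbered symbols leave out other cadherin genes, of which *Cdhr1* and *Pcdhb4* were called higher in the Arc and *Cdhr2* and *Pcdhb15* in the VMH. The calls of *Pcdhb4* and *Pcdhb15* did not hold in each fit with an array left out, and those of *Pcdhb4* and *Cdhr2* were lost in the fit of all 8 arrays.

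Collagens and laminins had 26 tested genes of 53, of which 8 were higher in the Arc and 3 were higher in the VMH, so 42.3% were called against 11.1% of all genes. The split was 5 to 4 without scaling, 5 to 2 in the fit of all 8 arrays, and 4 to 3 over the 18 members measured on all 4 arrays. The Arc collagens included *Col6a1*, a component of the matrix around cells, at 868 and 758 against no measured signal in the VMH, at least 7.81-fold higher (log2 difference 4.74 ± 0.33, adjusted p = 0.000744), and *Col2a1*, at 348 and 557 and at least 4.24-fold higher (log2 difference 4.08 ± 0.31, adjusted p = 0.00109). *Lama1*, a laminin of basement membranes, was higher in the VMH, at 1742 and 1630.0 against 264 and 222 (log2 difference -2.80 ± 0.21, adjusted p = 0.00105). With an array left out, it was 4 to 2 without Arc1, 5 to 3 without Arc2, 5 to 2 without VMH1, and 6 to 2 without VMH2.

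Imprinted genes, which are expressed from the copy of one parent, had 27 tested members of 30, of which 8 were higher in the Arc, 1 was higher in the VMH, and 18 did not pass. The share called was 33.3%, against 11.1% of all genes. Beside *Asb4*, *Calcr*, and *Dlk1*, *Peg10*, a gene derived from a retrotransposon, read 9096 and 11250.2 in the Arc and 2980.1 and 3068 in the VMH (log2 difference 1.74 ± 0.22, adjusted p = 0.00607). *Plagl1*, a zinc finger factor, read 233448 and 182579 against 90747 and 53447 (log2 difference 1.57 ± 0.31, adjusted p = 0.0281), a call lost without Arc1, without Arc2, and without VMH2. *Magel2*, which is deleted in Prader-Willi syndrome, read 47101 and 32710.0 in the Arc and 50157 and 33894 in the VMH and did not pass (adjusted p = 0.913). Without Arc1 or without Arc2 4 of the list were called, and without VMH1 or VMH2 5.

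Immediate early genes, which respond to recent activity, had 17 tested members, of which 5 were higher in the Arc and 2 were higher in the VMH. The share called was 41.2%, against 11.1% of all genes. *Fos* read 724 and 356 in the Arc and 90.4 and 158 in the VMH (log2 difference 2.09 ± 0.41, adjusted p = 0.0287), and *Egr4* read 2949 and 4154 in the VMH and 1453 and 629 in the Arc (log2 difference -1.87 ± 0.41, adjusted p = 0.0407). *Fos* was lost without Arc1 and without VMH1, and *Egr4* without Arc2, VMH1, or VMH2 and in the fit of all 8 arrays. The list had 2 calls without Arc1, 1 without Arc2, 2 without VMH1, and 3 without VMH2, and without scaling the split turned to 2 in the Arc and 3 in the VMH. Of 18 tested genes of secretory granules and peptide processing, 3 were higher in the VMH, 1 was higher in the Arc, and 14 did not pass, so 22.2% were called against 11.1% of all genes. *Cadps2*, a priming factor of dense-core vesicles, was higher in the VMH at 2619.8 and 2432 against 856 and 1029 (log2 difference -1.43 ± 0.21, adjusted p = 0.0119) and was lost without Arc1, and *Chga*, a granin, read 15857 and 13241 against 6779.9 and 4636 (log2 difference -1.37 ± 0.26, adjusted p = 0.0259) and was lost without Arc2 and without VMH1. *Pcsk2*, a prohormone convertase, was also higher in the VMH (24368 and 22578 against 8621 and 11772), and *Qpct*, which modifies the ends of peptides, was higher in the Arc (2276 and 1789.8 against 807 and 1025). Both were called in 1 of the 4 fits with an array left out, and *Qpct* was lost in the fit of all 8 arrays. The list had fewer calls in the fits without Arc1, Arc2, or VMH1, but as many without VMH2, where they were split evenly between the nuclei.

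Markers of other cell types were compared as well. Of 17 tested oligodendrocyte markers, 5 were higher in the VMH, 0 in the Arc, and 12 did not pass, so 29.4% were called against 11.1% of all genes. Their summed signal was 30954 and 21536 in the Arc against 48395 and 58127 in the VMH and 159546 and 169382 in the LH. *Mal*, a myelin protein, read 4108 and 3333 in the VMH and 1452 and 858 in the Arc (log2 difference -1.73 ± 0.30, adjusted p = 0.0196), a call lost without Arc2 and without VMH1. The oligodendrocyte count was 7 without Arc1, 1 without Arc2, and 3 without VMH1 or without VMH2, and it was 11 without scaling. *Gfap*, the filament of astrocytes, was higher in the Arc, at 3735 and 6337 against 1228 and 1284 (log2 difference 1.95 ± 0.29, adjusted p = 0.0115), while *Gjb6*, an astrocyte gap junction protein, was higher in the VMH, at 6854 and 6966 against 2139.5 and 2722 (log2 difference -1.52 ± 0.22, adjusted p = 0.0107), a call lost without Arc1. Without Arc1, *Gfap* was the sole astrocyte call. Among the 14 tested astrocyte markers, 1 was higher in the Arc, 2 were higher in the VMH, and 11 did not pass, with a median difference of -0.46. Their summed signal was 119453 and 133969 in the Arc and 175864 and 163779 in the VMH. Of 11 microglia markers, 13 endothelial and mural markers, 5 leptomeningeal markers, and 3 blood markers tested, 0 were called, and the 9 markers of the anterior pituitary did not pass the filter on dim probes. By limma at an unadjusted p under 0.05, 4 of these 32 genes passed, and the methods' t-test gave 2 at the same unadjusted threshold, which 25.5% of all tested probes passed by limma and 17.7% by the methods' t-test. The Arc arrays differed from each other in the leptomeningeal markers, which summed to 20318 on Arc1 and 5287 on Arc2, against 15141 and 16617 in the VMH. Without Arc1 1 of the 5 was called higher in the VMH, and without Arc2 2 were called higher in the Arc. *Ptgds*, the prostaglandin synthase of the meninges, read 13692 and 2558 in the Arc and 13385 and 14335 in the VMH (adjusted p = 0.332).

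**Figure D5:**
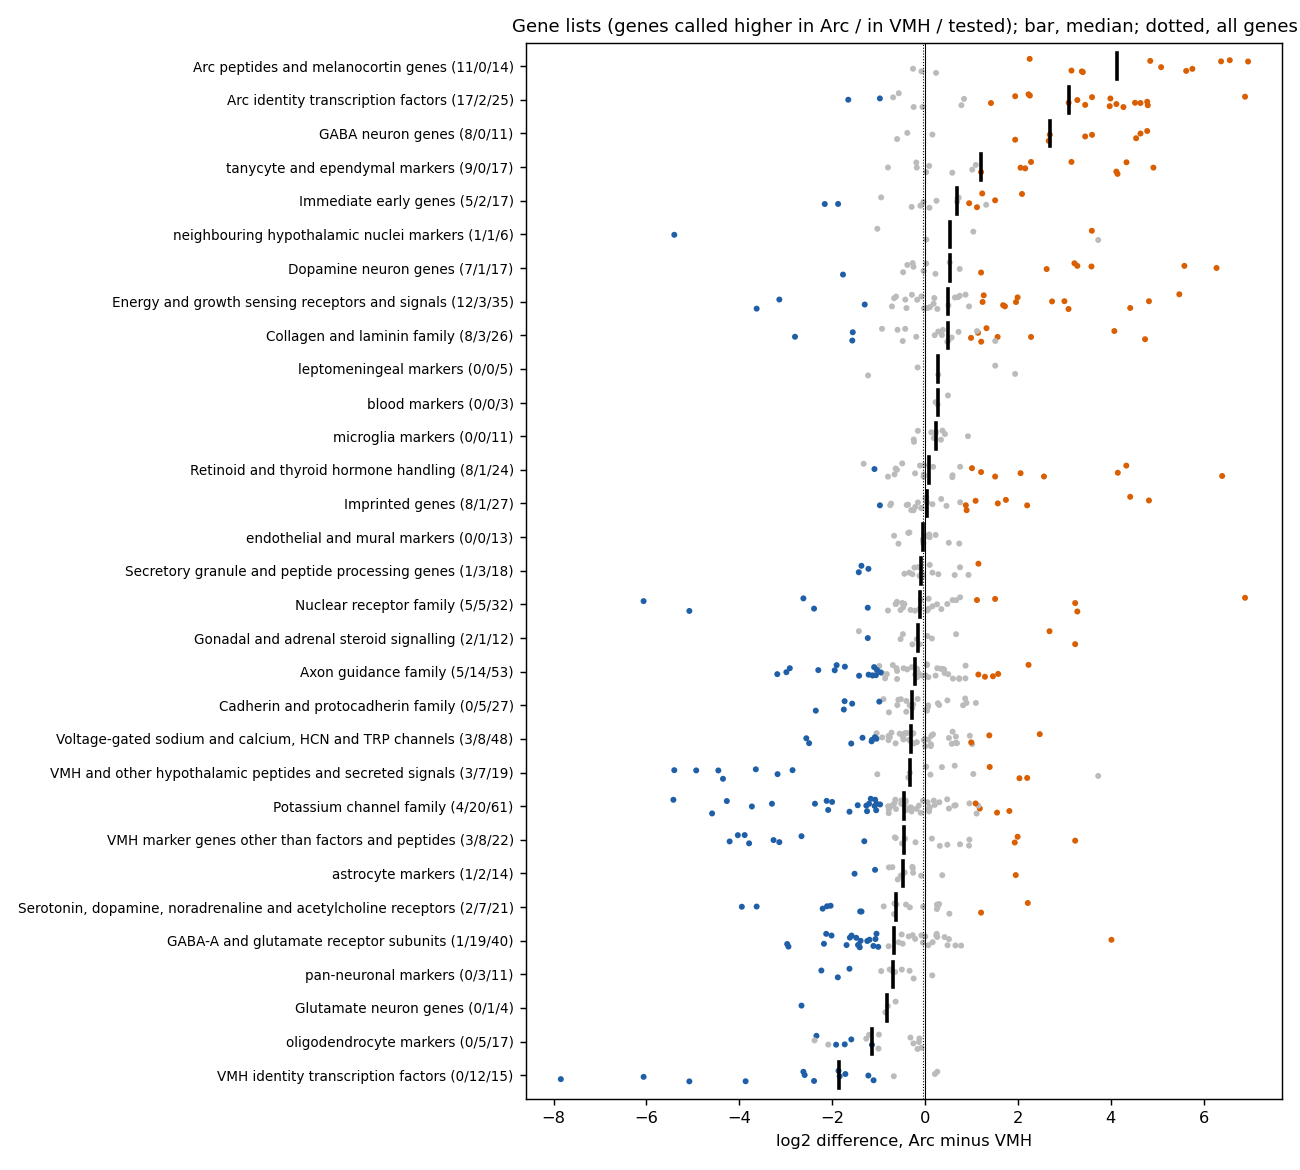
The log2 difference between the Arc and the VMH (horizontal axis) for each tested gene of 31 lists, with genes called higher in the Arc in orange, genes called higher in the VMH in blue, and other genes in grey. Black bars mark the list medians, which run from 4.13 for the Arc peptides to -1.86 for the VMH factors, and the dotted line marks the median of all genes (-0.05).

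Set against the 4 arrays of the DMH and LH as well, *Agrp* and *Kiss1* were higher in the Arc than on any other array and *Nr5a1* and *Fezf1* higher in the VMH, whereas *Gad1* was low in the VMH alone.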

How the data were processed

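RNA of dissected nuclei was amplified with the WTA2 kit, labelled chemically, and hybridized to Agilent mouse 8x60K arrays in one colour. The authors deposited processed intensities of each spot, read in the red channel, made with Agilent Feature Extraction (version 11.5.1.1 per the labels, 10.7.3.1 per the file headers), which subtracted background and trends within an array and did not scale between arrays. Control probes and outlier spots (126 to 161 an array) were dropped. Repeat spots gave one mean per probe, which was scaled by the 75th percentile of the array (815 to 1239 as deposited) and one constant. No spot was saturated. The deposited flags, software marks of 0 or 1 for each spot, chose the measured probes. The deposited series table, intensities rounded to whole numbers, served as an alternative. Differences were tested with limma 3.58.1 in R 4.3.3 (2 residual degrees of freedom, 4.50 prior) and adjusted over all 27450 probes, and the script was checked on simulated data. Of 28390 probes with a RefSeq accession, 26762 (94.3%) were named through RefSeq. SE is limma's moderated standard error, and each value is log2 Arc minus VMH. All members and gene lists were chosen with earlier results of these data known. Named genes were 8 set names, up to 5 called genes of largest difference in each list with those in several lists, the 12 largest ratios each way, and 8 pairs by symbol stem. Genes given as not passing illustrate a list, and *Abcc8*, *Cartpt*, *Cbln4*, *Cdhr1*, *Cdhr2*, *Dlx5*, *Gabra2*, *Gad2*, *Glp1r*, *Gria3*, *Hipk4*, *Irs4*, *Isl1*, *Kcna5*, *Kcng1*, *Kcnh4*, *Kcnk9*, *Ldb2*, *Lmo3*, *Nhlh2*, *Nkx2-2*, *Npy2r*, *Npy5r*, *Otp*, *Pcdhb15*, *Pcdhb4*, *Pip5kl1*, *Prok2*, *Ramp3*, *Rreb1*, *Slc18a2*, *Slc32a1*, *Slit1*, *Sncg*, *Socs3*, *Sox1*, *Sst*, *Trpc5*, *Unc5a*, and *Vim* were chosen after their values were seen. Some genes counted in the lists are not reported here by name or value.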

Additional observations from a re-analysis of the deposited data

How the results depend on the processing

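The direction of the 121 named genes was the same under each of the 20 alternatives that gave a value for them. Several of these alternatives change only the error estimate or the threshold and keep the fitted difference, so they could not change a direction. All 121 were also called in the main fit, where the arrays of the nuclei were separate. The number of called probes (2503) was 1626 when dim probes were kept, with 824 higher in the VMH. Without scaling, 667 probes were called higher in the Arc against 1069. With a ratio of means of at least 10 added to the adjusted p, 196 probes, 111 higher in the Arc and 85 in the VMH, and 59 named genes were called, and 57 of the 226 called genes of the lists. Of the named genes, 69 were measured on all 4 arrays. The methods' t-test, the unpaired test named there for 2 groups, called 0 probes, 0 named genes, and 0 list genes after Benjamini-Hochberg adjustment. Unadjusted, it called 4844 probes (2095 and 2749), where limma unadjusted gave 6991. The authors do not name this test for the arrays, where they picked genes by a signal ratio of at least 10. With one array left out, the counts ran from 1118 to 2240 probes, from 476 to 1181 higher in the Arc, from 642 to 1059 higher in the VMH, from 145 to 182 list genes, and from 103 to 108 named genes. Oligodendrocyte calls were 11 rather than 5 after normexp background correction. Replicates share numbers, but the deviations of same-numbered arrays correlated at 0.11, and with 2 numbers this does not pair them. A fit with the replicate number as a block called 3492 probes (1588 and 1904), 249 list genes, and 10 oligodendrocyte markers, and it kept all 2503 probes and all 121 named genes. Signals near background limit the low values, so differences below the lowest measured signal have no order.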

Other observations

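Pairs of genes with the same symbol stem and with 1 member called in each direction were listed, and some involve genes outside the groups above. *Krt90*, an epithelial keratin gene, read 5300.0 and 4956 in the Arc and was not measured in the VMH, at least 49.3-fold higher (log2 difference 7.11 ± 0.30, adjusted p = 0.000355), while *Krt18*, a keratin of simple epithelia, read 2596 and 3305 in the VMH and 169 and 211 in the Arc (log2 difference -3.96 ± 0.24, adjusted p = 0.000560). *Vgll3* read 803 and 823 in the Arc and was not measured in the VMH, at least 7.83-fold higher (log2 difference 4.20 ± 0.28, adjusted p = 0.000728), against the opposite pattern of its relative *Vgll2*. *Trpm6*, a magnesium channel, read 258 and 270.0 in the VMH and was not measured in the Arc, at least 2.33-fold higher (log2 difference -2.50 ± 0.43, adjusted p = 0.0181), whereas *Trpm4* was higher in the Arc. The call of *Trpm6* was lost without VMH1 (adjusted p = 0.0651) and without VMH2. *Tpbg*, a membrane protein of the Wnt pathway, read 3499 and 4240.2 in the VMH and 239 and 149 in the Arc (log2 difference -4.35 ± 0.28, adjusted p = 0.000669), and *Lypd1*, which modulates nicotinic receptors, read 7291 and 5464 against 405 and 313 (log2 difference -4.15 ± 0.25, adjusted p = 0.000565).

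Of 10911 tested probes without a gene symbol, 714 were called. Those known only by a chromosome position numbered 6051, of which 392 (6.48%) were called, 203 higher in the Arc and 189 in the VMH.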
